A study of Mus musculus with 6 samples.

Results

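Signaling by bone morphogenetic proteins (BMPs) and transforming growth factor beta (TGF-beta) was followed here through 10 genes that endothelial cells use to send, receive, restrain and read out these signals. The genes are the receptors Acvrl1, Bmpr2 and Tgfbr2, the co-receptor Eng, the ligand Tgfb1, the inhibitory Smads Smad6 and Smad7, and the target genes Id1, Id2 and Id3. They were taken by name as 10 of the 23473 RefSeq gene rows in the expression table, and each name was found in exactly 1 row.

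RNA was sequenced from tumor endothelial cells (TECs) of subcutaneous Lewis lung carcinoma (LLC) tumors, a transplanted mouse lung cancer line, in 3 control (Ctrl) mice and 3 NICeCA mice. All mice were of the C57BL/6 strain and 8 weeks old per the labels. NICeCA mice carry the tamoxifen-inducible Cdh5 cre ERT2 together with the allele Rosa26 flox-stop-flox Notch1 ICD. Tamoxifen thereby switches on the Notch1 intracellular domain where the Cdh5 promoter, that of an endothelial junction gene, is active. Ctrl mice are labelled wild type, and the sources used here do not state whether they carried the Cre or received tamoxifen in this experiment. Cells were captured with beads against CD31, the product of Pecam1, and a purity over 90% was stated by the submitters. Each library came from its own mouse.

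As background, ligands of this family bring together type I and type II receptor kinases, and the type I receptor then phosphorylates receptor-regulated Smads, which enter the nucleus with Smad4. In endothelium, Acvrl1 (ALK1) and Bmpr2 respond to circulating BMPs with the help of Eng (endoglin), and mutations in Acvrl1 or Eng cause hereditary hemorrhagic telangiectasia in humans. Tgfbr2 binds TGF-beta. Smad6 and Smad7 are induced by the pathway and feed back on it. Id proteins lack a DNA-binding domain and sequester E proteins, which are helix-loop-helix transcription factors. Several of the genes, Tgfb1, Tgfbr2, Id2 and Smad7 among them, are also expressed by leukocytes, so that a bulk value is not specific to endothelial cells.

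Depth on RefSeq rows was 27793301 to 30769916 reads per library, and the lowest of the 10 genes, Smad6, had 144 to 457 reads per library while Tgfbr2 had 7798 to 10596. Values are RPKM, reads divided by gene model length and by the reads of the library summed over all 56826 rows. A read on overlapping rows can count more than once in that sum. Division by length allows levels to be compared between genes, but only roughly, since removing a remaining length trend moved some fold changes (below). Notch1, whose intracellular part the transgene encodes, had 14.3, 8.19 and 13.8 RPKM in Ctrl and 12.3, 13.6 and 12.6 RPKM in NICeCA libraries, a log2 fold change of 0.11 (limma adjusted p = 0.71). The summed RPKM of 12 endothelial markers was 209.6 to 570.0 in Ctrl and 476.2 to 628.2 in NICeCA libraries, with all 12 log2 fold changes above 0 and none past the test. Their mean log2(RPKM + 1) was 5.15, 3.84 and 4.15 in Ctrl replicates 1 to 3 and 4.81, 5.28 and 5.19 in NICeCA replicates 1 to 3, so that Ctrl 2 and Ctrl 3 lay below the other libraries and Ctrl 1 lay among the NICeCA libraries. Markers of other cells were abundant: the 10 macrophage markers summed to 7012 to 10003 RPKM in Ctrl and 5405 to 9273 RPKM in NICeCA libraries. They went in both directions, with 3 called higher and 0 lower, and with 4 log2 fold changes above 0 and 6 below. Of the 9 neutrophil marker genes in the table, 7 were tested and 6 rose, their sum being 117.4 to 269.0 in Ctrl and 594.0 to 1641 RPKM in NICeCA libraries. Platelet markers summed to 115.1 to 197.3 and 1175 to 1307 RPKM, nearly all from Pf4 and Ppbp, which were the 2 of 4 tested that rose. Mural cell markers summed to 36.4 to 52.8 and 74.9 to 141.9 RPKM (3 of 7 rose), and fibroblast markers to 338.5 to 569.5 and 163.8 to 329.9 RPKM (3 of 7 fell). Lymphocyte markers (40.03 to 63.1 and 34.2 to 53.6 RPKM, 0 of 9 called) and epithelial or tumor markers (6.71 to 12.3 and 6.13 to 8.57 RPKM, 1 of 2 fell) were low. The part of these other cells in the results was not tested, and fewer cells of a type cannot be told apart from less RNA per cell in bulk samples.

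Of the 3 target genes, 2 were higher in NICeCA libraries, as was an inhibitory Smad, while no receptor, co-receptor or ligand among the 10 genes passed the test. The libraries also held RNA of other cells, so these differences cannot be assigned to endothelial cells. With the endothelial marker mean as a covariate, none of the 10 genes and none of all genes tested was called. Of the 10 genes, Id1, Id2 and Smad6 rose (limma on log2(RPKM + 1), Benjamini-Hochberg adjusted p under 0.05 over 12320 tested RefSeq rows) and 0 fell. Among all genes tested, 5.88% were called higher and 7.68% lower (725 and 946 genes, or 1098 and 612 with trimmed mean scaling, which left the calls of the 10 genes as they were). At an unadjusted p under 0.05, 5 of the 10 were higher and 0 lower, beside 14.4% and 21.1% of all genes. On the reads recovered from the RPKM values, limma voom called 3 of the 10 higher and 0 lower, beside 5.54% and 10.9% of all genes. In 5 genes (Id1, Id2, Id3, Smad6 and Acvrl1) all 3 NICeCA libraries lay above all 3 Ctrl libraries, against 16.5% of all genes, and in none of the 10 did they lie wholly below, against 24.4%. The median log2 fold change over the 10 genes was 0.33, beside -0.05 over all genes tested. The exact permutation test of a single gene has 20 assignments of the 6 libraries and cannot go below p = 0.1, the value of each of these 5 genes.

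**Figure D1:**
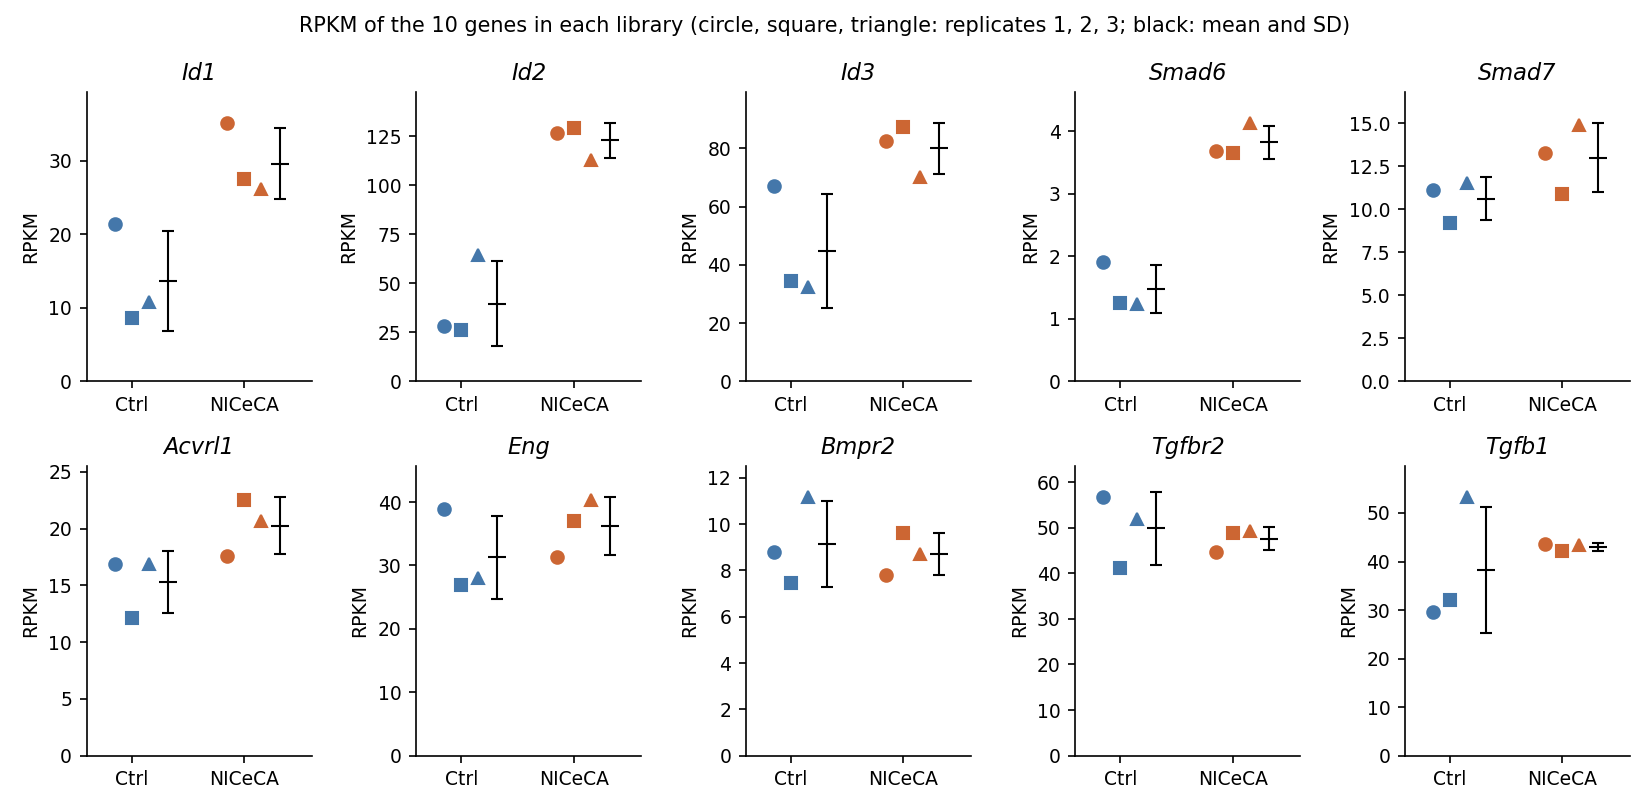
RPKM (vertical axis, linear, from 0) of each of the 10 genes in the 3 Ctrl (blue) and 3 NICeCA (orange) libraries, with circle, square and triangle for replicates 1, 2 and 3 and a black bar for mean and SD. In Id1, Id2, Id3, Smad6 and Acvrl1 every NICeCA point lies above every Ctrl point, whereas in Smad7, Eng, Bmpr2, Tgfbr2 and Tgfb1 the groups overlap.

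**Figure D2:**
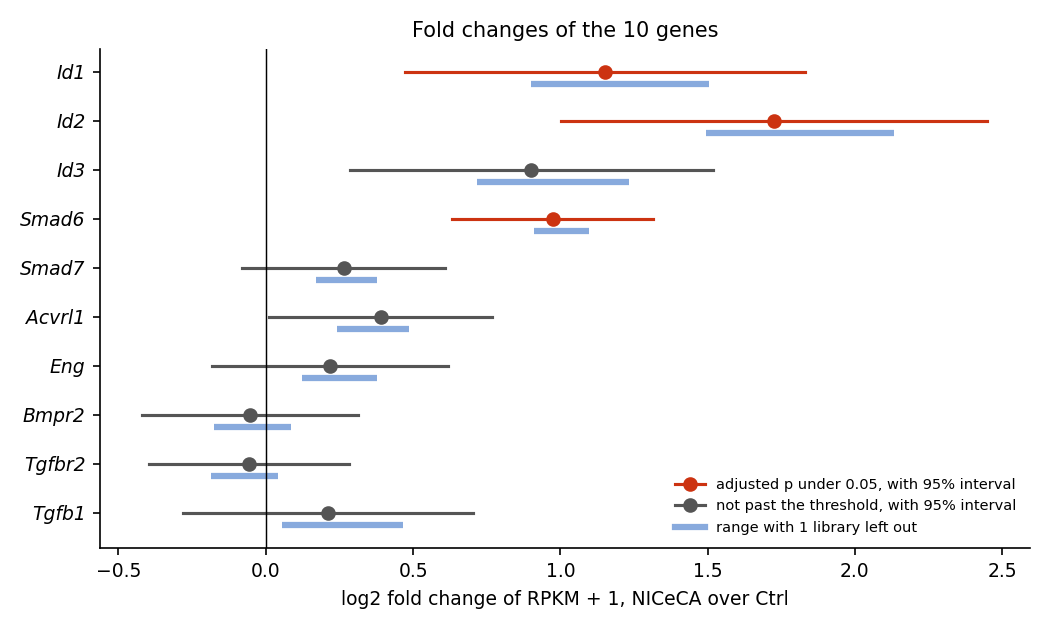
Log2 fold change of RPKM + 1, NICeCA over Ctrl (horizontal axis), for the 10 genes, as points with 95% intervals, red where the adjusted p was under 0.05, and in light blue the range of the estimate when 1 library was left out. The intervals of the Id genes, Smad6 and Acvrl1 lie above 0, and those of the other 5 genes include it.

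Among the Id genes, Id2 rose by the most. Id2 (chromosome 12, 25093799 to 25096092, minus strand) had 28.3, 26.1 and 64.7 RPKM in Ctrl replicates 1 to 3 and 126.5, 129.4 and 112.8 RPKM in NICeCA replicates 1 to 3. The lowest NICeCA library lay above the highest Ctrl library, Ctrl 3, which itself stood apart from the other Ctrl libraries. The means were 39.7 ± 21.7 and 122.9 ± 8.89 RPKM (SD, n = 3 each), and the log2 fold change was 1.73 (SE 0.31, limma adjusted p = 0.023). Without Ctrl 2, NICeCA 1 or NICeCA 2 the adjusted p was 0.050, 0.10 and 0.099, with log2 fold changes of 1.49, 1.70 and 1.69.

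Id1 (chromosome 2, 152736274 to 152737410, plus strand), a direct target of Smad1 and Smad5 in endothelium, had 21.4, 8.68 and 10.8 RPKM in Ctrl and 35.2, 27.5 and 26.2 RPKM in NICeCA libraries. Ctrl 1 held clearly more than the other Ctrl libraries and still lay below every NICeCA library. The means were 13.6 ± 6.80 and 29.6 ± 4.84 RPKM (SD, n = 3 each), with a log2 fold change of 1.15 (SE 0.29, limma adjusted p = 0.043). This call was close to the threshold. It was kept when Ctrl 1 was left out, and leaving out any other library gave log2 fold changes between 0.90 (without Ctrl 2, adjusted p = 0.096) and 1.23 (without NICeCA 3, adjusted p = 0.058), with adjusted p of 0.083 without Ctrl 3, 0.15 without NICeCA 1 and 0.14 without NICeCA 2.

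Id3 (chromosome 4, 136143822 to 136145392, plus strand), which is induced with Id1 by BMPs in endothelial cells, had 67.2, 34.3 and 32.4 RPKM in Ctrl and 82.4, 87.3 and 70.3 RPKM in NICeCA libraries. As for Id1, Ctrl 1 was the highest Ctrl library, and here it came within a few RPKM of NICeCA 3. The means were 44.6 ± 19.6 and 80.0 ± 8.74 RPKM (SD, n = 3 each), and the log2 fold change of 0.90 (SE 0.27) did not pass the test (limma adjusted p = 0.059). Without Ctrl 1 it was 1.23 and passed (adjusted p = 0.023). Id4, the remaining family member, was at most 0.32 RPKM in any library and was not tested.

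Promoters are shown for Id2 and Smad6, which were called higher. Those of Id3 and Bmpr2, neither of which passed the test, are shown beside them. Each is given as the 250 bases before the RefSeq start in GRCm38.p6, read 5′ to 3′ on the strand of the gene. Of the 10 genes, 7 were matched in the RefSeq promoter table, and Id1, Acvrl1 and Smad7 were not. Capitals mark matches, on either strand, to the GC-rich Smad motif GGCGCC, the Smad box CAGAC or GTCTG, and the RBPJ core TGGGAA or TTCCCA. The windows are chr12:25096093-25096342 (minus) for Id2, chr4:136143572-136143821 (plus) for Id3, chr9:64022060-64022309 (minus) for Smad6 and chr1:59764029-59764278 (plus) for Bmpr2.
Id2: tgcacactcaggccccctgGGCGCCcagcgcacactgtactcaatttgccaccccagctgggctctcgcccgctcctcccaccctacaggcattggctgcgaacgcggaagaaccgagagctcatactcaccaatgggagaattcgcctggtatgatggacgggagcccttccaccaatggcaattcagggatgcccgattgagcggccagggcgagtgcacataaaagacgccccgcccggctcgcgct
Id3: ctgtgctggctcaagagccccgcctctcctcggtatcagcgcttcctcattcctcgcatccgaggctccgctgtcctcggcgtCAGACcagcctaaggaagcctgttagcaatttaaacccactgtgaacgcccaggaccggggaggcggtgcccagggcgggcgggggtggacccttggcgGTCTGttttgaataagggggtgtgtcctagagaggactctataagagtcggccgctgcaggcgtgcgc
Smad6: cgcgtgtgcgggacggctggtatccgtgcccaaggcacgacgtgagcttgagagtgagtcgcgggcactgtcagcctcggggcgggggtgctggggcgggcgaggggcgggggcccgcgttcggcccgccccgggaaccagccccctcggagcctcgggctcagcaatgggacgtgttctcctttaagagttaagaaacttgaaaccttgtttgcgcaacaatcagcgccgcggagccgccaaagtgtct
Bmpr2: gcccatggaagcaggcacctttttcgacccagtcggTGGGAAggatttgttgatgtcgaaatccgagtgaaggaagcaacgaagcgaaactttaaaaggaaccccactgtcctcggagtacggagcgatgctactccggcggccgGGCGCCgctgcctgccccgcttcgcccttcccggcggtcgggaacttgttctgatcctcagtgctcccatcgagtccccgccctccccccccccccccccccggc
Id2 held the GC-rich motif once, 231 to 226 bases before the start, and Bmpr2 held it once, 105 to 100 bases before the start. Id3 held the Smad box at 167 to 163 and at 68 to 64 bases before the start. The RBPJ core, the sequence bound by the DNA-binding partner of Notch, occurred in Bmpr2 at 214 to 209 bases before the start. Smad6 and Tgfb1 had no match in this window, while Eng had 2 Smad boxes and Tgfbr2 had 1. Of 32851 promoters of the same length, 9.59% held the GC-rich motif, 42.2% the Smad box and 21.6% the RBPJ core, so that each is common. A match is a description of the letters and not a measured binding site.

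Summed over Id1, Id2 and Id3, the level was 116.9, 69.1 and 107.9 RPKM in Ctrl and 244.1, 244.2 and 209.2 RPKM in NICeCA libraries. The composition of this sum varied in Ctrl and was even in NICeCA: Id2 made up 24.2%, 37.8% and 60.0% of it in Ctrl replicates 1 to 3, and 51.8%, 53.0% and 53.9% in NICeCA replicates 1 to 3. The E-protein genes that Id proteins restrain, Tcf3, Tcf4 and Tcf12, summed to 53.9, 59.8 and 55.3 RPKM in Ctrl libraries. In NICeCA libraries they summed to 35.9, 40.1 and 45.4 RPKM, lower in each. Each of these genes lay wholly lower in NICeCA, as did 24.4% of all genes tested. Of the E-protein genes, Tcf3 fell by 0.61 on the log2 scale (limma adjusted p = 0.043). With 1 library left out, this call was kept only without Ctrl 3 (estimates from -0.71 to -0.47). Tcf4 (-0.37, adjusted p = 0.12) and Tcf12 (-0.34, adjusted p = 0.10) did not pass the test. The ratio of the Id sum to the E-protein sum was thus 2.17, 1.16 and 1.95 in Ctrl and 6.80, 6.10 and 4.61 in NICeCA libraries. These sums and ratios, and the ratios given below, were chosen after the values had been seen and are given without a test.

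**Figure D3:**
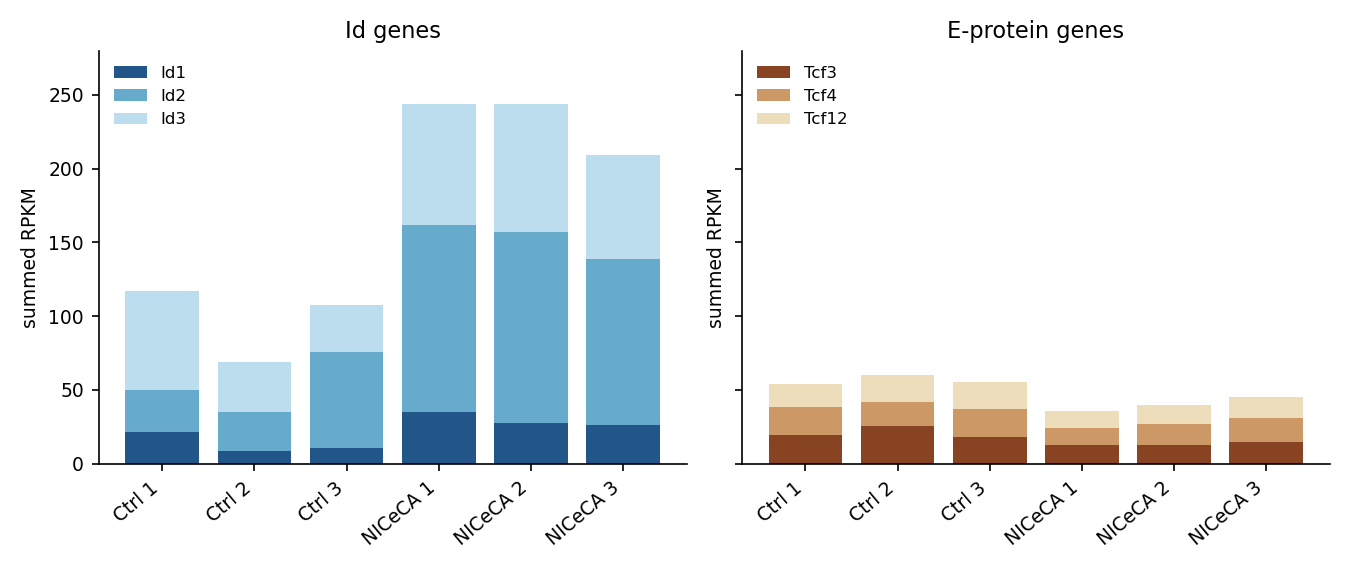
Summed RPKM (vertical axis, from 0) of Id1, Id2 and Id3 (left, blue shades) and of Tcf3, Tcf4 and Tcf12 (right, brown shades) in each of the 6 libraries. The Id sum is 69.1 to 116.9 RPKM in Ctrl and 209.2 to 244.2 RPKM in NICeCA libraries, and the E-protein sum is 53.9 to 59.8 RPKM and 35.9 to 45.4 RPKM.

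Of the inhibitory Smads, Smad6 rose and Smad7 overlapped between the groups. Smad6 (chromosome 9, 63953076 to 64022059, minus strand), which acts mainly on BMP receptors, had 1.91, 1.26 and 1.24 RPKM in Ctrl and 3.69, 3.65 and 4.13 RPKM in NICeCA libraries. It was the lowest of the 10 genes in each group and its 2 groups were well apart. The means were 1.47 ± 0.38 and 3.82 ± 0.27 RPKM (SD, n = 3 each), a ratio of 2.60, and the log2 fold change of RPKM + 1, which understates changes at such levels, was 0.97 (SE 0.15, limma adjusted p = 0.016). On the recovered reads, limma voom gave 1.37 (adjusted p = 0.018). The call was lost without NICeCA 1 (0.99, adjusted p = 0.076) and without NICeCA 2 (1.00, adjusted p = 0.076), where few genes of the whole table were called, and the estimate itself hardly moved.

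Smad7, which inhibits both TGF-beta and BMP receptors, had 11.1, 9.20 and 11.5 RPKM in Ctrl and 13.2, 10.9 and 14.9 RPKM in NICeCA libraries. NICeCA 2 lay below Ctrl 1 and Ctrl 3, and the log2 fold change was 0.27 (SE 0.15, limma adjusted p = 0.24, 95% interval -0.08 to 0.61). The ratio of Smad6 to Smad7 RPKM was 0.172, 0.137 and 0.108 in Ctrl and 0.279, 0.335 and 0.278 in NICeCA libraries, higher in each NICeCA library.

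None of the receptors passed the test. Acvrl1 (chromosome 15, 101128522 to 101145336, plus strand), the type I receptor typical of endothelium, came closest, with 16.8, 12.2 and 16.9 RPKM in Ctrl and 17.6, 22.5 and 20.7 RPKM in NICeCA libraries. The groups did not overlap, but NICeCA 1 lay less than 1 RPKM above Ctrl 1 and Ctrl 3. The means were 15.3 ± 2.73 and 20.3 ± 2.50 RPKM (SD, n = 3 each), and the log2 fold change was 0.39 (SE 0.16, limma adjusted p = 0.13, 95% interval 0.01 to 0.77). An antisense gene, Gm16031, shares 127 of its 4265 exon bases, and reads from the opposite strand may be included, since the strand setting of the counting is unknown.

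Eng (chromosome 2, 32646595 to 32682669, plus strand), the co-receptor of Acvrl1, had 38.8, 26.9 and 28.1 RPKM in Ctrl and 31.3, 37.0 and 40.3 RPKM in NICeCA libraries. Ctrl 1 was the second highest of the 6 libraries, so the groups overlapped, and the log2 fold change was 0.22 (SE 0.17, limma adjusted p = 0.40, 95% interval -0.18 to 0.62). Eng shares 61 of 4048 exon bases with Fpgs on the opposite strand.

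Bmpr2 (chromosome 1, 59764279 to 59878081, plus strand), the type II receptor of the BMP branch, had 8.80, 7.47 and 11.2 RPKM in Ctrl and 7.78, 9.61 and 8.72 RPKM in NICeCA libraries, with a log2 fold change of -0.05 (SE 0.16, 95% interval -0.42 to 0.31, limma adjusted p = 0.84). Tgfbr2 (chromosome 9, 116087695 to 116175363, minus strand), the type II receptor of TGF-beta, had 56.7, 41.1 and 51.8 RPKM in Ctrl and 44.6, 48.8 and 49.2 RPKM in NICeCA libraries, with a log2 fold change of -0.06 (SE 0.15, 95% interval -0.40 to 0.28, limma adjusted p = 0.81). For both receptors the NICeCA libraries lay within the range of the Ctrl libraries. The sign of either estimate depended on the scaling: with a trimmed mean of log ratios they were 0.038 and 0.042.

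The receptors were also set against each other. The ratio of Acvrl1 to Bmpr2 RPKM was 1.91, 1.63 and 1.51 in Ctrl and 2.26, 2.34 and 2.37 in NICeCA libraries. The ratio of Acvrl1 to Tgfbr2 was 0.297, 0.295 and 0.326 in Ctrl and 0.394, 0.461 and 0.420 in NICeCA libraries. Both ratios were higher in every NICeCA library than in any Ctrl library. The gene models differ in length, with 3788 bases for Acvrl1, 11087 for Bmpr2 and 4788 for Tgfbr2. With a gene length trend removed, the log2 fold changes of these genes were 0.50, 0.34 and 0.10, beside 0.39, -0.05 and -0.06 in the main fit. The difference between Acvrl1 and Bmpr2 was thus smaller in that setting. Acvrl1 per unit of Pecam1 was 0.125, 0.256 and 0.205 in Ctrl and 0.141, 0.147 and 0.146 in NICeCA libraries, with overlapping groups and the lower mean in NICeCA.

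The ligand Tgfb1 (chromosome 7, 25687002 to 25704996, plus strand), which leukocytes and platelets also make, had 29.6, 32.1 and 53.2 RPKM in Ctrl and 43.5, 42.1 and 43.4 RPKM in NICeCA libraries. The NICeCA libraries lay close together and between Ctrl 3 and the other Ctrl libraries. The log2 fold change was 0.21 (SE 0.21, 95% interval -0.28 to 0.70, limma adjusted p = 0.50). Without Ctrl 3 it was 0.47 and passed the test narrowly (adjusted p = 0.049).

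Ordered by mean level, Ctrl libraries had Tgfbr2, Id3, Id2, Tgfb1 and Eng at 49.9 down to 31.3 RPKM, with overlapping ranges between neighbours, then Acvrl1, Id1, Smad7 and Bmpr2 at 15.3 down to 9.15 RPKM, again overlapping, and Smad6 alone at the bottom. In NICeCA libraries the order was Id2, Id3, Tgfbr2, Tgfb1, Eng, Id1, Acvrl1, Smad7, Bmpr2 and Smad6, and the ranges of neighbours were apart except those of Eng and Id1. The Id genes had thus moved up in the order relative to the receptors.

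The endothelial marker level differed between the libraries, so each gene was also set against it. Eng was higher where the markers were higher: the 4 libraries with a marker level above 4.8 had 31.3 to 40.3 RPKM. The others, Ctrl 2 and Ctrl 3, had 26.9 and 28.1 RPKM. The same held for Id1, with 21.4 to 35.2 against 8.68 and 10.8 RPKM. It also held for Id3 (67.2 to 87.3 against 34.3 and 32.4) and Smad6 (1.91 to 4.13 against 1.26 and 1.24). It did not hold for Id2, Acvrl1, Smad7, Bmpr2, Tgfbr2 or Tgfb1. All NICeCA libraries were among those 4, so group and marker level cannot be told apart here. Pecam1 had 134.7, 47.5 and 82.6 RPKM in Ctrl and 125.0, 153.6 and 141.6 RPKM in NICeCA libraries (log2 fold change 0.78, limma adjusted p = 0.13), and Cdh5 had 82.4, 30.9 and 43.3 and then 59.2, 78.6 and 96.5 RPKM (0.66, adjusted p = 0.20). Per unit of Pecam1, Eng was 0.288, 0.566 and 0.340 in Ctrl and 0.251, 0.241 and 0.285 in NICeCA libraries. It was lower in each, though NICeCA 3 lay only just under Ctrl 1. Id2 per unit of Pecam1 was 0.210, 0.549 and 0.783 in Ctrl and 1.01, 0.842 and 0.796 in NICeCA libraries. It was higher in each, though NICeCA 3 lay only just above Ctrl 3. The groups overlapped for the other ratios computed. Smad6 per unit of Pecam1 was 0.014, 0.026 and 0.015 in Ctrl and 0.030, 0.024 and 0.029 in NICeCA libraries. Means went from 0.158 to 0.215 for Id1 and from 0.538 to 0.575 for Id3.

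Expressed as log2(RPKM + 1) minus the mean of the 12 endothelial markers, Id1 was -0.66, -0.56 and -0.59 in Ctrl and 0.36, -0.45 and -0.42 in NICeCA libraries. The groups did not overlap, and most of the difference came from NICeCA 1. Tgfbr2 was 0.70, 1.56 and 1.57 in Ctrl and 0.70, 0.36 and 0.46 in NICeCA libraries, so that NICeCA 1 lay just under Ctrl 1. On this scale the groups overlapped in each of the other 8 genes. The share of all tested genes whose groups do not overlap was not determined on this scale or per unit of Pecam1. Id2 went from a mean of 0.84 to 1.86, Id3 from 1.05 to 1.24, Smad6 from -3.08 to -2.83, and Acvrl1 from -0.37 to -0.69. For Id2, Ctrl 3 (1.89) lay above NICeCA 2 (1.75) and NICeCA 3 (1.64).

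Ctrl 1, whose endothelial level lay among those of the NICeCA libraries, gives a comparison at like endothelial marker levels, without replication on the Ctrl side. Other markers were not alike. Neutrophil markers summed to 117.4 RPKM in Ctrl 1 and 594.0 to 1641 RPKM in NICeCA libraries, and platelet markers to 126.3 and 1175 to 1307 RPKM. The part of these cells in the ratios below was not tested. Against Ctrl 1, the NICeCA libraries had 3.98 to 4.57 times its Id2 level and 1.91 to 2.16 times its Smad6 level. For Id1 the ratio was 1.22 to 1.64, for Tgfb1 1.42 to 1.47, for Id3 1.05 to 1.30 and for Acvrl1 1.04 to 1.34. Eng was at 0.81 to 1.04 times and Tgfbr2 at 0.79 to 0.87 times the level of Ctrl 1. When the endothelial mean was added to the model as a covariate, log2 fold changes were 1.87 for Id2 (limma adjusted p = 0.15), 0.78 for Smad6 (0.13), 0.64 for Id1 (0.28) and 0.40 for Id3 (0.36). None of the 12320 genes was called in that model.

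**Figure D4:**
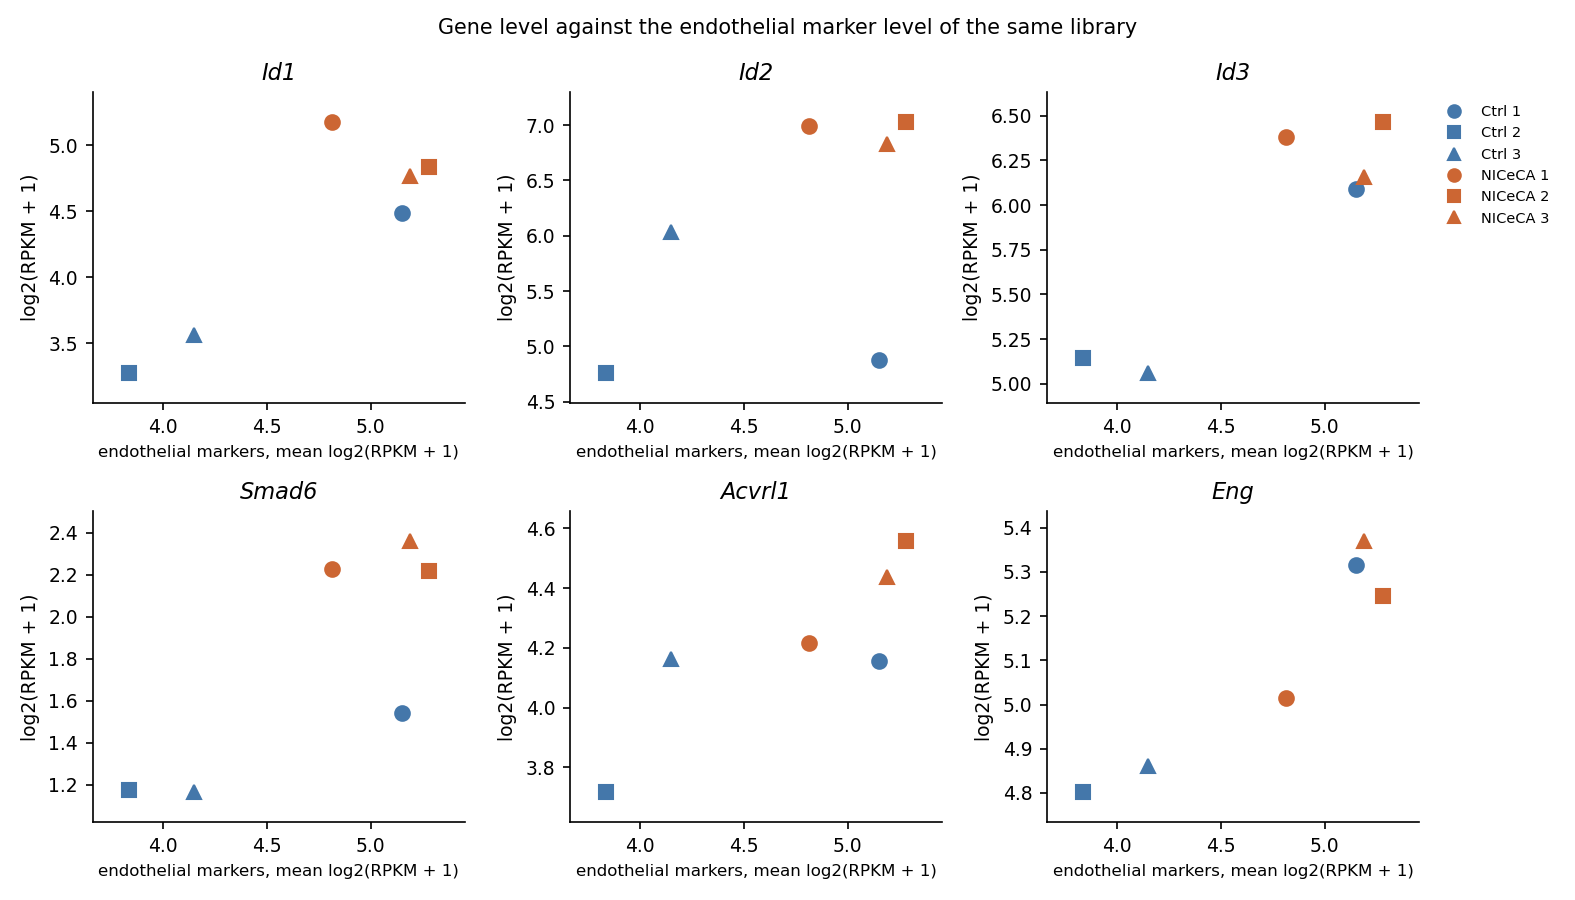
Log2(RPKM + 1) of Id1, Id2, Id3, Smad6, Acvrl1 and Eng (vertical axes) against the mean log2(RPKM + 1) of 12 endothelial markers in the same library (horizontal axis), Ctrl in blue and NICeCA in orange. Ctrl 1 (blue circle) shares the marker level of the NICeCA libraries, where it lies well below them in Id2 and Smad6 and among them in Eng.

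Across the rest of the pathway, genes were called in both directions. A list of 53 further genes in the table held 50 of BMP and TGF-beta signaling and the E-protein genes Tcf3, Tcf4 and Tcf12. Of these 53, 40 were tested, 4 rose and 7 fell (4 and 6 of 37 without the E-protein genes), with a median log2 fold change of -0.14, beside 5.88% higher and 7.68% lower and a median of -0.05 over all genes tested. With limma voom 4 rose and 8 fell, and with a gene length trend removed 3 rose and 2 fell. At an unadjusted p under 0.05, 7 of the 40 were higher and 15 lower, beside 14.4% and 21.1% of all genes. These counts changed when 1 library was left out. Without NICeCA 1, 0 rose and 0 fell, when 90 and 14 of all genes were called, and without NICeCA 2, 0 rose and 0 fell, when 17 and 1 were. Without Ctrl 2, 0 rose and 3 fell, when 244 and 135 of all genes were called. The counts were 4 and 4 without Ctrl 1, 3 and 6 without Ctrl 3, and 1 and 6 without NICeCA 3. Without NICeCA 1 the log2 fold changes of Inhba, Pmepa1 and Tgfbr3 were 3.57, -1.02 and -1.05. Each call of a single pathway gene depended on the settings. It was lost in 4 (Tgfbr3 and Pmepa1) to 11 (Tcf3 and Acvr2b) of 15 or 16 alternatives.

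Among 5 tested ligands of the list, the activin and inhibin beta subunit genes that it holds, Inhba and Inhbb, rose. Inhba, which encodes the subunit of activin A, had 1.34, 4.16 and 14.9 RPKM in Ctrl and 47.1, 59.3 and 77.2 RPKM in NICeCA libraries, a log2 fold change of 3.40 (SE 0.60, limma adjusted p = 0.021) and the largest of the list. It was 2.75 without Ctrl 1 and 4.13 without Ctrl 3, and 3.32 without Ctrl 2, 3.57 without NICeCA 1 and 3.41 without NICeCA 2, where it did not pass the test (adjusted p = 0.050, 0.084 and 0.092). Inhbb, which encodes the subunit of activin B, had 23.5, 8.20 and 11.5 RPKM in Ctrl and 30.8, 32.2 and 31.7 RPKM in NICeCA libraries (1.21, adjusted p = 0.045). The circulating ligands of Acvrl1, Bmp10 and Gdf2, were at most 0.22 and 0.028 RPKM. Of 6 genes that bind latent TGF-beta, Ltbp3 fell from a mean of 11.7 to 4.03 RPKM (-1.30, adjusted p = 0.029), and the other 5 did not pass the test.

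Of 7 other receptors tested, 2 fell. Tgfbr3 (betaglycan), a co-receptor of TGF-beta related to Eng, had 22.3, 28.7 and 23.3 RPKM in Ctrl and 9.03, 9.50 and 13.6 RPKM in NICeCA libraries (-1.15, SE 0.18, limma adjusted p = 0.017). Acvr2b, a type II receptor of activins, fell from a mean of 3.04 to 1.14 RPKM (-0.88, adjusted p = 0.048). The most abundant of these other receptors were Tgfbr3 and Tgfbr1, and Tgfbr1, the type I receptor that works with Tgfbr2, had a log2 fold change of -0.10 (adjusted p = 0.79).

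Of the receptor-regulated Smads and Smad4, 1 of 5 tested fell. Smad5, which carries BMP signals, had 11.3, 12.5 and 11.8 RPKM in Ctrl and 6.45, 7.71 and 8.78 RPKM in NICeCA libraries (-0.58, limma adjusted p = 0.036). Smad1, its close relative, had 21.9, 14.1 and 13.0 RPKM in Ctrl and 12.9, 14.7 and 14.6 RPKM in NICeCA libraries (-0.17, adjusted p = 0.56). Smad4, the common partner and the most abundant of this group, had a log2 fold change of 0.21 (adjusted p = 0.28), and Smad3, of the TGF-beta branch, one of -0.60 (adjusted p = 0.070).

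Of 10 antagonists and negative regulators tested, 1 rose and 2 fell. Tgif1, a co-repressor of Smad transcription, had 22.9, 20.3 and 27.8 RPKM in Ctrl and 33.4, 41.5 and 40.7 RPKM in NICeCA libraries (0.68, limma adjusted p = 0.036). Pmepa1, a target of TGF-beta that restrains it, had 5.799, 5.10 and 7.19 RPKM in Ctrl and 2.78, 2.41 and 2.45 RPKM in NICeCA libraries (-0.98, adjusted p = 0.015). Ski, another Smad co-repressor, fell from a mean of 35.6 to 23.1 RPKM (-0.61, adjusted p = 0.032). Among 4 other target genes tested, Tmem100, a target of Acvrl1 signaling in endothelium, rose from 0.89, 0.73 and 0.74 RPKM to 1.62, 2.83 and 2.19 RPKM (0.83, adjusted p = 0.030), and the TGF-beta targets Tgfbi (0.52, adjusted p = 0.19) and Ctgf (0.80, adjusted p = 0.14) did not pass the test.

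**Figure D5:**
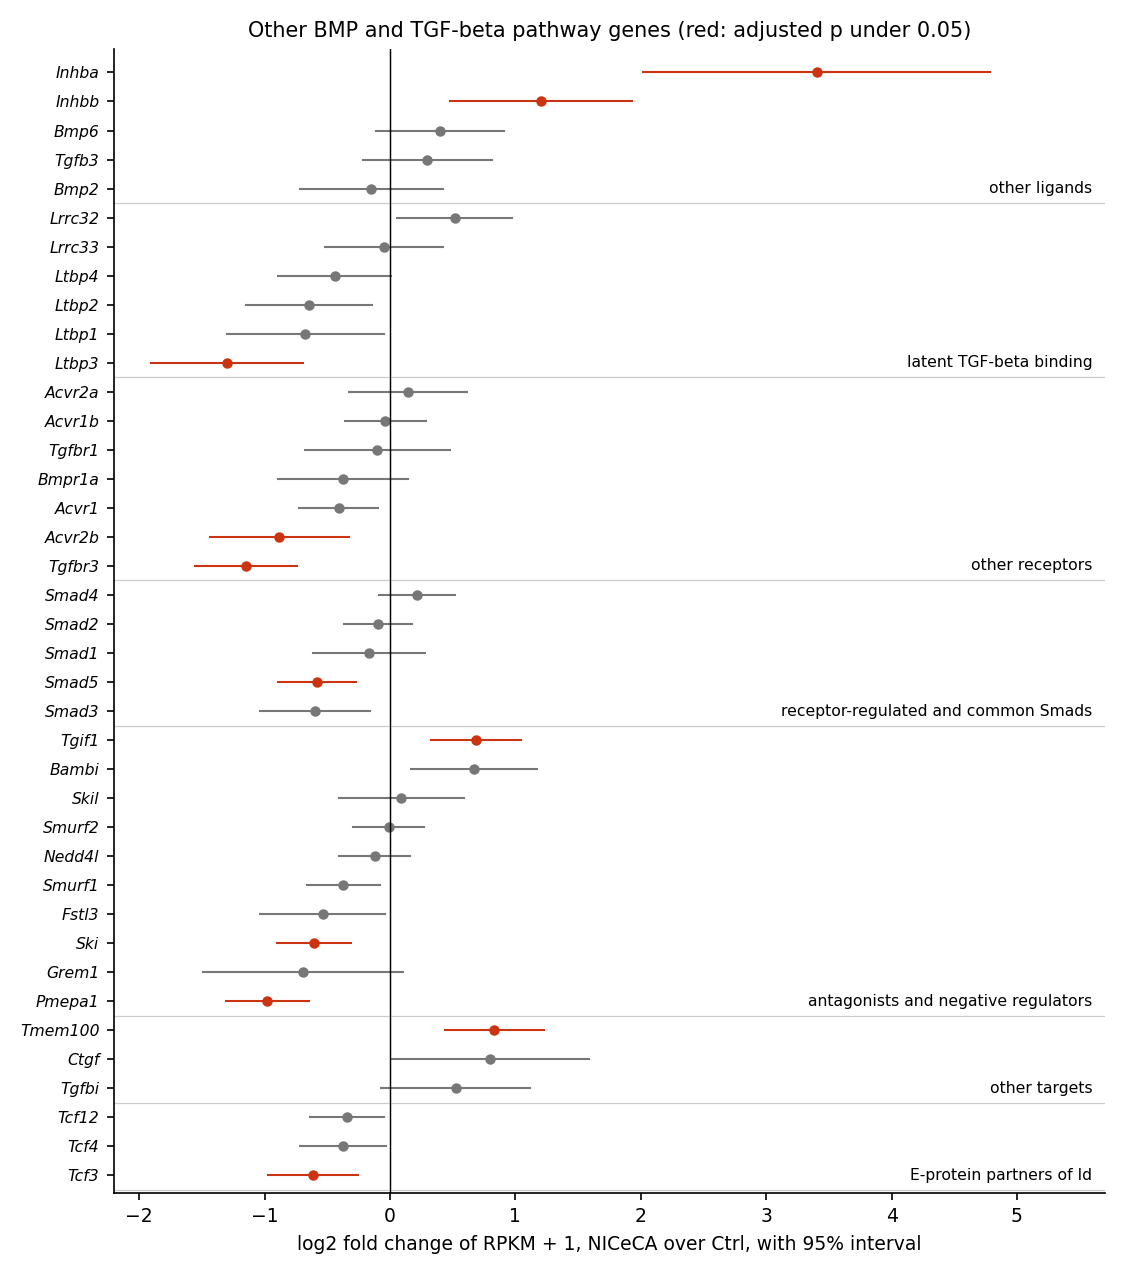
Log2 fold change of RPKM + 1, NICeCA over Ctrl (horizontal axis), with 95% intervals, for 39 of the 40 tested further genes of the list in groups by role, red where the adjusted p was under 0.05. Inhba, Inhbb, Tgif1 and Tmem100 lie to the right in red, and Ltbp3, Tgfbr3, Acvr2b, Smad5, Ski, Pmepa1 and Tcf3 to the left.

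Over the 6 libraries, the 10 genes varied together to different degrees, as a description in which the difference between the groups is included. Id1 and Id3 had the closest patterns, with a Pearson r of 0.97, and each was close to Smad6 (0.92 and 0.90). Id2 followed Smad6 (0.82) more than Id1 (0.71) or Id3 (0.60). Bmpr2 and Tgfbr2 had r of -0.18 and -0.01 with Smad6. The tested gene most like each was Fam151b for Id1 (r = 0.993), Ppp6c for Id2 (0.999), Mir15a for Id3 (0.993), Wbp5 for Smad6 (0.993), Mapkapk5 for Smad7 (0.995), Itga2 for Acvrl1 (0.999), Cdh13 for Eng (0.998), Pknox1 for Bmpr2 (0.996), Tigit for Tgfbr2 (0.988) and Azi2 for Tgfb1 (0.997). With 6 libraries such values are common: 10 genes exceeded r = 0.95 with Smad7, and 468 did with Id2.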

How the data were processed

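The authors deposited RPKM values for 56826 rows in 6 libraries, 23473 with RefSeq names and 33353 FANTOM3 models, many of which cover the same reads. The submitters' processing notes name TopHat2 and mm9, but 99.9% of 21738 RefSeq rows matched by symbol and chromosome overlap that gene in GRCm38, so positions are given in GRCm38. No counting tool or strand setting is named in the sources used here. RPKM times length gave whole reads for 100.0% of values under 1000 reads, within 0.05 of a read.

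RefSeq rows with a mean of at least 1 RPKM (12320) were compared as log2(RPKM + 1) with limma 3.58.1 in R 4.3.3, with the mean-variance trend, two-sided, no replicate block and Benjamini-Hochberg adjustment over all of them. The test was checked on simulated data. Members and lists were chosen with earlier results of these data known. Named genes are the 10 genes, called pathway genes, the most abundant receptors and Smads, the gene nearest to each by Pearson r, and Notch1, Pecam1 and Cdh5. Others named were chosen after their values were seen. A pathway gene counted in its list is not reported here by name. Alternatives were a replicate block, leaving out each library, other filters, pseudocounts and scalings, limma voom, removal of a gene length trend, and the endothelial marker mean as a covariate. Intervals on fold changes are 95% intervals for the difference of the group means. Their width rests on the spread between mice, with variances partly pooled over all tested genes.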

Additional observations from a re-analysis of the deposited data

Results flagged for a closer look

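FANTOM3 rows, which were not used in the comparisons, also lay on the spans of some of the 10 genes. Of 16 such rows on the spans of the genes, 4 had every NICeCA library above every Ctrl library and 2 had every NICeCA library below. The share over all FANTOM3 rows was not determined. Of the lower rows, that on Bmpr2 was at most 0.63 RPKM. The other touches only the end of Eng, on the opposite strand, and lies over Fpgs. The row on Tgfb1 is a model of 278 bases with a span from 21344121 to 44954390, and its groups overlapped. A row at the start of Smad7 had a ratio of mean RPKM, NICeCA over Ctrl, of 1.36, with 18.3, 16.2 and 17.1 RPKM in Ctrl and 23.4, 19.7 and 27.2 RPKM in NICeCA libraries, whereas the RefSeq row of Smad7 overlapped between the groups. The 2 rows on Id2 each had a ratio of 2.98, and the row on Id3 had 1.82. These 4 rows overlap the RefSeq rows in position, the Id3 row running on beyond the end of the RefSeq row, so they share reads with them and are no independent evidence.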

How the results depend on the processing

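Under 16 alternatives (15 for Smad6, which a mean of at least 5 RPKM leaves out), the log2 fold changes of Id1 (0.64 to 1.51), Id2 (1.46 to 2.13), Id3 (0.40 to 1.23) and Smad6 (0.78 to 1.37) stayed above 0, while their calls did not: Id1 lost its call in 9 alternatives, Id2 in 5 and Smad6 in 4. Of the called pathway genes, Tcf3 and Acvr2b lost theirs in 11 alternatives, Inhbb and Smad5 in 10, Tgif1 in 9, Ski and Tmem100 in 7, Inhba and Ltbp3 in 5, and Tgfbr3 and Pmepa1 in 4, none with a change of sign. The count of the 10 genes called higher was 3. It was between 0 and 4 with 1 library left out, and 0 both with no filter and with the endothelial marker covariate. Pathway genes called higher numbered 4, between 0 and 4 with 1 library left out, 1 with the replicate block, 2 with quantile normalization, and 0 with no filter or with the covariate. Those called lower numbered 7, between 0 and 6 with 1 library left out, 3 with the replicate block, 4 with quantile normalization, 2 with the length trend removed, and 0 with no filter or with the covariate. The replicate block left 3 of the 10 genes called higher. Same-numbered libraries were not the most alike. Their deviations from the group means correlated at 0.12, -0.34 and -0.18, and those of Ctrl 2 and NICeCA 3 at 0.44. The paper's methods speak of 3 pairs of mice, but which libraries formed a pair is not stated. These correlations therefore cannot exclude a pairing. Bmpr2 turned positive with quantile normalization (0.031), trimmed mean scaling (0.038) and the length trend removed (0.34), and ranged from -0.17 to 0.087 with 1 library left out. Tgfbr2 turned positive with trimmed mean scaling (0.042) and the length trend removed (0.10), and ranged from -0.19 to 0.041 with 1 library left out. Eng turned to -0.092 with the covariate. Why these values moved was not tested, except that without a filter 23473 rows share the adjustment. Over all genes, calls were 725 higher and 946 lower, 1098 and 612 with trimmed mean scaling, 446 and 325 with quantile normalization, 683 and 1337 with limma voom, 590 and 206 with the length trend removed, 42 and 9 with no filter, 327 and 209 with the replicate block, 90 and 14 without NICeCA 1 and 17 and 1 without NICeCA 2. With 3 libraries a group, the wide intervals leave moderate differences in the receptors undetectable.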
